A study of Mus musculus and Homo sapiens with 41 samples.

Results

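The regions described here are the stretches of the genome of K-562 cells that carried a peak of monoubiquitinated Lys119 of histone H2A (H2AK119ub) after knockdown of MBD6 and after knockdown of NSUN2 in TET2-knockout (KO) cells, and that carried none in any library treated with control siRNA. A member is a run of bases on chromosomes 1 to 22, X or Y that was covered by peaks in at least 3 of the 6 knockdown libraries, with at least 1 library from each knockdown, and that overlapped no peak of the 6 control libraries. There were 635 such regions, covering 154.1 kb, among 3361 regions with the same support in the knockdown libraries, so 18.9% of the supported regions were members. In all, 4356 regions were covered in at least 3 of the 12 K-562 libraries. The members were chosen by the presence or absence of peaks in these 12 libraries, so nothing that separates knockdown from control libraries at these regions is a finding, and values of that kind are given as a description.

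The study asked how oxidation of RNA 5-methylcytosine (m5C) by TET2 bears on chromatin in leukaemic and stem cells, and its 41 libraries cover K-562 cells, mouse embryonic stem (mES) cells and mouse haematopoietic stem and progenitor cells (HSPCs). K-562 is an established human erythroleukaemia line, which the labels place in bone marrow and call lymphoblast. H2AK119ub was profiled by CUT&Tag, in which an antibody directs a transposase to cut and tag the DNA beside the mark, with Drosophila chromatin as a spike-in. Of the 12 K-562 libraries, 3 came from TET2 KO cells with siMBD6, 3 from TET2 KO cells with siNSUN2, 3 from TET2 KO cells with the non-targeting siNC and 3 from wild-type (WT) cells with siNC. The mouse libraries used below came from Tet2 KO HSPCs with shMbd6 or shNC and WT HSPCs with shNC, and from Tet2 KO mES cells with siMbd6, siNsun2 or siNC and WT mES cells with siNC, 3 libraries each. No K-562 library came from WT cells with a knockdown, and whether the TET2 KO line is a single clone is not given in the sources used here. The study calls its replicates biological, while the titles only number them, and p-values measure the spread between these libraries.

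H2AK119ub is placed by Polycomb repressive complex 1 and removed by the deubiquitinase BAP1 within the PR-DUB complex, to which MBD6 can bind. Polycomb marks are best known at CpG islands of silent developmental genes, while low levels are found across much of the genome. NSUN2 is a methyltransferase that writes m5C on RNA.

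The members fell into promoters, which were mostly rich in CpG and often held the GC-box word CCCGCCC, and distal sites. Of the 310 distal members, 255 were poor in CpG and 55 were rich in CpG. The CpG-poor ones more often held the words AGATAAG, the core of sites bound by GATA factors, and TGACTCA, the AP-1 site. The first 3 sequences show windows of promoter members and of an intronic CpG-rich member, and the last 3 show distal CpG-poor members. Each is the 300-base window around the centre of a member, read 5′ to 3′ on the + strand of hg38, with the words searched in capitals on either strand. GP1BB is at chr22:19723261-19723560, CCNB1 at chr5:69166944-69167243, NR4A1 at chr12:52032947-52033246, SELENOP at chr5:42872905-42873204, TRIM63 at chr1:26070471-26070770 and LHX2 at chr9:124054758-124055057. The name is that of the nearest or host protein-coding gene. In the first 3 windows the capitals mark CCCGCCC or its complement GGGCGGG and, in CCNB1 and NR4A1, the ETS word CCGGAAG read as CTTCCGG. In the last 3 they mark AGATAAG, read as CTTATCT in both windows that hold it, and TGACTCA or its complement TGAGTCA.
GP1BB: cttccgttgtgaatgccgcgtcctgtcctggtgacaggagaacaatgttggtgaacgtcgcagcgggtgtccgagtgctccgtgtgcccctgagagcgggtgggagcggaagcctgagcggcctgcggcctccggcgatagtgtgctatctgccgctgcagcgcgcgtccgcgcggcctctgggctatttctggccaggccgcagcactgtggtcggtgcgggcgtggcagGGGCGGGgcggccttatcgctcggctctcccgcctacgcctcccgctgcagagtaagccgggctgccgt
CCNB1: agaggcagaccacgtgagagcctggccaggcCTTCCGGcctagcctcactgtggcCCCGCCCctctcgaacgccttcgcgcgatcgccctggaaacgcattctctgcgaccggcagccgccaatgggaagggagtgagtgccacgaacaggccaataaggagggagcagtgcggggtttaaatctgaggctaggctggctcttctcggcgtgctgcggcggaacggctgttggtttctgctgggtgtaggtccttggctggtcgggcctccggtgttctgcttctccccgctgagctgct
NR4A1: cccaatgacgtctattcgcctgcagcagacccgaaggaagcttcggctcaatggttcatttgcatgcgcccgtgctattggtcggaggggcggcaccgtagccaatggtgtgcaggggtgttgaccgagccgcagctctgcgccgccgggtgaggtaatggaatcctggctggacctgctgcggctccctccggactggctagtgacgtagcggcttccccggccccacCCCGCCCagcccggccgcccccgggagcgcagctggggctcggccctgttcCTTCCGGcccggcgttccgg
SELENOP: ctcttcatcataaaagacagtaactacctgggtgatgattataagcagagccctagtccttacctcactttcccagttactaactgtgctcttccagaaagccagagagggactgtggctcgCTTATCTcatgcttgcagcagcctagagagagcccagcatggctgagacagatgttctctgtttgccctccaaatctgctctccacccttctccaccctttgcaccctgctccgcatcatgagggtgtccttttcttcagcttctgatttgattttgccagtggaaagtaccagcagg
TRIM63: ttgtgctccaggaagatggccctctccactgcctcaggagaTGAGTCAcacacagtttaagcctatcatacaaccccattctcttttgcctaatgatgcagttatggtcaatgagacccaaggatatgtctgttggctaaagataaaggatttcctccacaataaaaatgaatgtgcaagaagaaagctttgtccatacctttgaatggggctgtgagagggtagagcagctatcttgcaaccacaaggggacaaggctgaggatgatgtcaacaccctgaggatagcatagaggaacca
LHX2: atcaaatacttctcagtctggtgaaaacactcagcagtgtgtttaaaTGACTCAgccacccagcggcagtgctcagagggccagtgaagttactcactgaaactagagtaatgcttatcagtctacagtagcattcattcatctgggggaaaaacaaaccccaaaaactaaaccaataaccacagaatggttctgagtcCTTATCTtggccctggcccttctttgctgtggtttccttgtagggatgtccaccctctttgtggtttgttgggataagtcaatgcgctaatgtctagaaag
The LHX2 window held both the GATA and the AP-1 word. A match describes letters and shows no binding.

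Of the 635 members, 358 had a peak in exactly 3 of the 6 knockdown libraries, 171 in 4, 90 in 5 and 16 in all 6. The largest class, 236 members, rested on 1 siMBD6 library and 2 siNSUN2 libraries. Members were narrow, with a median width of 244 bp (6 to 724 bp), against 334 bp for the 2726 supported regions that overlapped a siNC peak. Regions that extended the edge of a siNC peak could not be members, since the rule removed any overlap. The median distance to the nearest siNC peak was 78.9 kb, and 15 of the 635 members had a siNC peak within 5 kb. At the limit of the rule, the 358 members with exactly 3 libraries had a median peak strength (−log10 q, as the peak caller gave it) of 3.78, and the 524 regions left outside, with 1 library of each knockdown and no siNC peak, had 3.51.

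The yield of the libraries moved with the rule. The siMBD6 libraries listed 3413, 3767 and 3035 peaks and the siNSUN2 libraries 4575, 4453 and 3562, against 2064, 2351 and 2073 in TET2 KO siNC and 2582, 1919 and 2076 in WT siNC. No knockdown library was as low as any siNC library. The log2 ratio to TET2 KO siNC was 0.65 for siMBD6 and 0.95 for siNSUN2 (exact permutation test, two-sided, p = 0.1 for each, the smallest that 3 against 3 libraries can give). Drosophila spike-in peaks went the other way, with 100, 100 and 93 in siMBD6 and 65, 75 and 68 in siNSUN2, against 123, 147 and 142 in TET2 KO siNC. With the groups exchanged, only 31 of 1741 siNC regions had no knockdown peak, 1.78%. When every library was held to its 1919 strongest peaks, the number in the smallest library, 186 of 1741 knockdown regions had no siNC peak, 10.7%, and 151 of 1548 siNC regions had no knockdown peak, 9.75%. When weaker peaks were dropped at a −log10 q of 3, 542 regions, 19.4%, met the rule after the knockdowns and 31, 2.16%, with the groups exchanged. At a −log10 q of 5 these were 272 regions, 23.7%, and 16, 2.87%. At the equal number of peaks 168 of the 635 members still overlapped a region that met the rule, 13 of the 16 that had a peak in all 6 libraries and 41 of the 358 that had exactly 3. Leaving out siNSUN2 replicate 1 or 2 gave 421 or 405 members. Whether unequal depth had a part in the number of members was not tested, since the peak lists hold no depth.

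**Figure D1:**
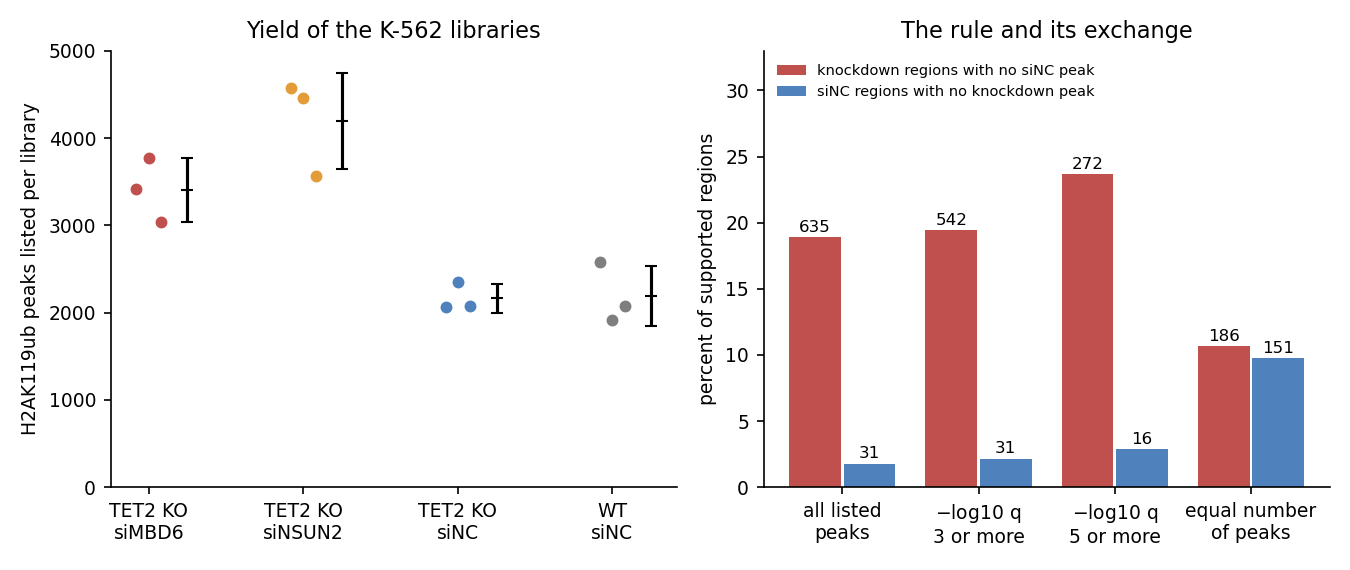
Left, the number of H2AK119ub peaks listed in each K-562 library (points), with the mean and SD of each group of 3; the siMBD6 and siNSUN2 libraries lie between 3035 and 4575, all above the siNC libraries. Right, the percent of supported knockdown regions with no siNC peak and of supported siNC regions with no knockdown peak (numbers above the bars), with all listed peaks, with 2 limits on peak strength and with an equal number of peaks per library, where 186 and 151 regions remain.

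Peaks on members had a slightly lower median −log10 q than the other peaks of the same library, in each of the 6 knockdown libraries. The median −log10 q of peaks on members lay between 3.88 and 4.18 over the 6 knockdown libraries, against 4.17 to 4.32 for the other peaks of the same libraries. The median fold enrichment was 4.82 to 5.17 on members and 4.79 to 5.21 elsewhere, and the highest on any member was 8.08. This median was higher on members in siNSUN2 replicates 1 and 2 (4.82 and 4.87 against 4.79 and 4.83) and lower in the other knockdown libraries. Each library had a peak on between 320 and 461 members, and these took 9.40% to 10.5% of its peaks. The replicate 3 libraries of both knockdowns listed narrower peaks than the others, with median widths of 290 and 289 bp against 337 to 373 bp in the other 10 libraries.

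The rule asked for at least 1 library of each knockdown, so no member could have peaks in all 3 libraries of 1 knockdown and in none of the other. The values of the knockdowns at the members are therefore a description and cannot show a lack of difference. The siMBD6 libraries covered 80.9, 97.1 and 72.9 kb of the members, and the siNSUN2 libraries 104.8, 111.6 and 81.4 kb. The groups overlapped, with a log2 ratio of −0.24. Per covered Mb of the library the values were 62.2, 68.7 and 73.8 kb in siMBD6 and 60.1, 67.0 and 70.9 kb in siNSUN2, a log2 ratio of 0.05. Region by region, limma on covered kb, with Benjamini-Hochberg adjustment over all 4356 regions, called 0 of the 635 members higher and 0 lower in siMBD6 than in siNSUN2, where it called 0.23% and 0.712% of all regions. At an unadjusted p under 0.05, limma had 64 members. Nothing is read from these counts, which also turned on single libraries: limma called 19, 23 and 9 members lower without siMBD6 replicate 1, 2 and 3, and 5 and 2 members higher without siNSUN2 replicate 2 and 3.

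Of the 16 members found in all 6 knockdown libraries, 10 lay within 1 kb of a TSS. Among these 16, the member with most covered bases lay 6328 bp from the TSS of BTG2, an antiproliferative gene induced by p53, at chr1:203311819-203312231. Its peaks covered 269, 413 and 230 bp in siMBD6 and 413, 375 and 337 bp in siNSUN2. The region over the TSS of RINT1, which acts in transport between endoplasmic reticulum and Golgi (chr7:105532023-105532406), had 361, 308 and 263 bp in siMBD6 and 339, 384 and 279 bp in siNSUN2. Both knockdown groups overlapped at each of these sites.

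Most of the other promoter members of the 16 belong to genes with general cellular functions. The region over the TSS of PIH1D1, a subunit of the R2TP chaperone complex that shares its promoter with ALDH16A1, had 299, 343 and 271 bp in siMBD6 and 309, 343 and 228 bp in siNSUN2. At SCAF4, which binds the tail of RNA polymerase II and prevents early termination, coverage was 273, 283 and 230 bp in siMBD6 and 283, 283 and 234 bp in siNSUN2. The TSS of ZNF555, a zinc finger gene, had 318, 287 and 312 bp in siMBD6 and 261, 318 and 318 bp in siNSUN2. Further promoter members of the 16 lay at ELOC, the elongin C gene, at MAN2B1, a lysosomal mannosidase gene, at NHERF1, a scaffold of membrane proteins, at GP1BB, and at an internal start site of PIK3AP1, an adaptor of PI3-kinase signalling. GP1BB encodes a subunit of the platelet receptor for von Willebrand factor and is a gene of the megakaryocytic lineage that K-562 cells can enter. Its region had 346, 363 and 259 bp in siMBD6 and 330, 266 and 244 bp in siNSUN2. The fold enrichment of its peaks was 2.55 to 2.92 over the 6 knockdown libraries, the lowest of the 16, with a −log10 q of 4.01 to 5.75. The NHERF1 region lay 994 bp from a siNC peak, the nearest of the 16.

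The other 6 lay over 1 kb from any TSS of a protein-coding gene. Among them, the region in an intron of SELENOP, the gene of the plasma selenium carrier, had 363, 334 and 289 bp in siMBD6. It had 257, 290 and 340 bp in siNSUN2, and its window is printed above with the GATA word. The region 2034 bp from TRIM63, a ubiquitin ligase gene best known in muscle, held the AP-1 word and had 267, 257 and 285 bp in siMBD6 and 285, 300 and 257 bp in siNSUN2. In an intron of NR4A1, an immediate-early nuclear receptor gene, coverage was 269, 285 and 246 bp in siMBD6 and 276, 271 and 285 bp in siNSUN2. The intronic region at ITLN2, a lectin gene, had 3 near-identical copies elsewhere in the genome, so reads there may be shared with those copies. Such copies (at least 95% identity over at least 80% of the length) were found for 33 of the 635 members.

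**Figure D2:**
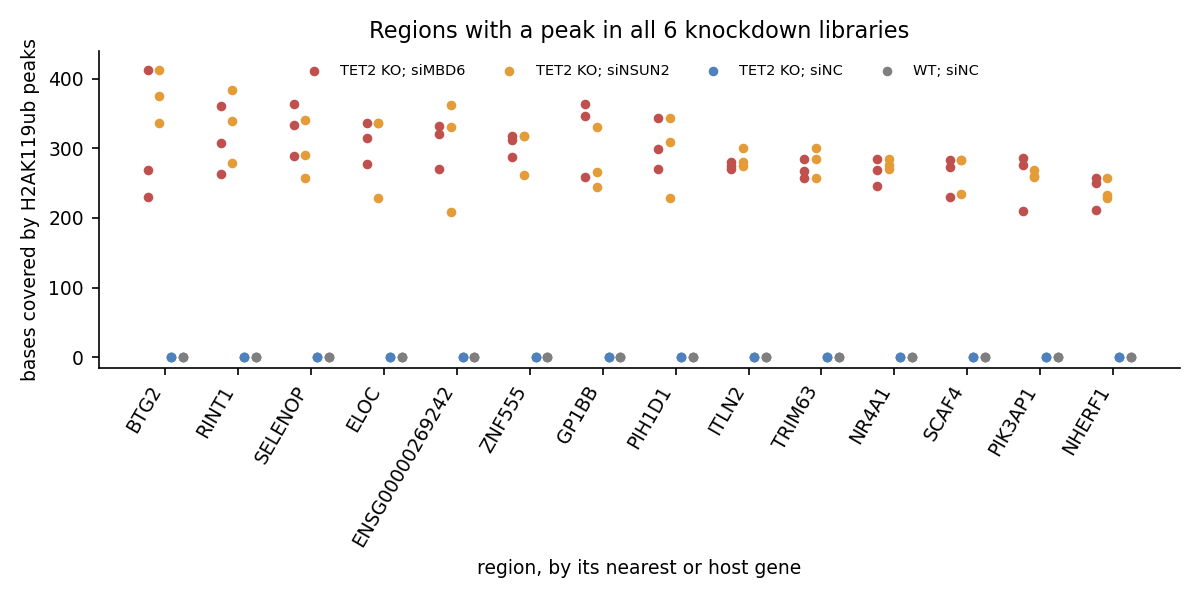
Bases covered by H2AK119ub peaks in each of the 12 K-562 libraries (points) at 14 of the 16 members with a peak in all 6 knockdown libraries, named by nearest or host gene. The siMBD6 and siNSUN2 points lie between 209 and 413 bp and overlap at every region, and all siNC points are at 0 because the rule requires it.

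Of the 90 members with peaks in 5 libraries, 54.4% lay within 1 kb of a TSS and 10.0% over 50 kb from the TSS of a protein-coding gene. They included the promoters of CENPU, a centromere protein gene (331, 353 and 298 bp in siMBD6, and 353, 197 and 0 bp in siNSUN2), and of TBCCD1, a gene of centrosome positioning (313, 335 and 268 bp in siMBD6, and 291, 335 and 0 bp in siNSUN2). HSD17B14, a steroid dehydrogenase gene, and ST3GAL3, a sialyltransferase gene, each lacked a peak in siMBD6 replicate 3. The widest of this class, 684 bp on chromosome 22 with OR11H1 as its nearest protein-coding gene 3361344 bp away, had 6 near-identical copies elsewhere.

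By position, 320 of the 635 members, 50.4% (95% Wilson interval 46.5% to 54.3%, counting error only), had the TSS of a protein-coding gene within 5 kb, 160 lay inside a gene with its TSS farther away and 155 had only a neighbouring gene. Counting every annotated transcript of protein-coding genes, 325 members, 51.2%, lay within 1 kb of a TSS. Exons of these genes held 4.72%, introns held 16.5%, and 27.6% lay between protein-coding genes. Genes of other types were not counted, so a member counted as far from a TSS may lie at a non-coding gene. The supported regions that overlapped a siNC peak had 53.4% within 1 kb of a TSS, 3.05% in exons, 15.3% in introns and 28.2% between genes, close to the members in each class. Windows 2 kb to each side of the members had 14.6% within 1 kb of a TSS. The 31 regions found with the groups exchanged had 12.9%. At an equal number of peaks, 58.1% of the 186 regions gained after both knockdowns lay within 1 kb of a TSS, against 22.5% of the 151 regions found with the groups exchanged.

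The members were rich in G and C. The 300-base windows at their centres had a median GC content of 62.7% and a median ratio of observed to expected CpG of 0.61, against 64.7% and 0.65 for the supported regions with a siNC peak and 46.7% and 0.23 for the windows 2 kb away. Of the members within 1 kb of a TSS, 81.5% met a CpG-island measure (GC of at least 50% and a ratio of at least 0.6). The 310 distal members split into 55 that met it and 255 that did not, and the CpG-poor ones had a median ratio of 0.26.

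The words in these windows followed the same split. They were chosen after counts of short words in the members had been seen, so their shares are a description. CCCGCCC, the box bound by SP and KLF factors, stood on either strand in 66.8% of the 325 members near a TSS, in 54.5% of the distal CpG-rich members and in 11.4% of the distal CpG-poor members, against 39.5% of the 300-base windows at the TSSs of 20033 protein-coding genes. In the supported regions with a siNC peak it was more frequent in each class, at 72.1%, 59.1% and 16.0%. CCGGAAG, a word of the ETS family, stood in 16.3% of the members near a TSS, against 12.1% of all promoters. AGATAAG stood in 18.4% of the 255 distal CpG-poor members, 47 regions, against 16.4% of the 996 distal CpG-poor regions with a siNC peak, 2.96% of distal CpG-poor windows 2 kb away and 1.93% of promoters. TGACTCA stood in 16.1% of the distal CpG-poor members, against 14.2% of those with a siNC peak and 4.30% of the windows 2 kb away. Either word was found in 78 of the 255, 30.6%, and 10 regions held both.

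**Figure D3:**
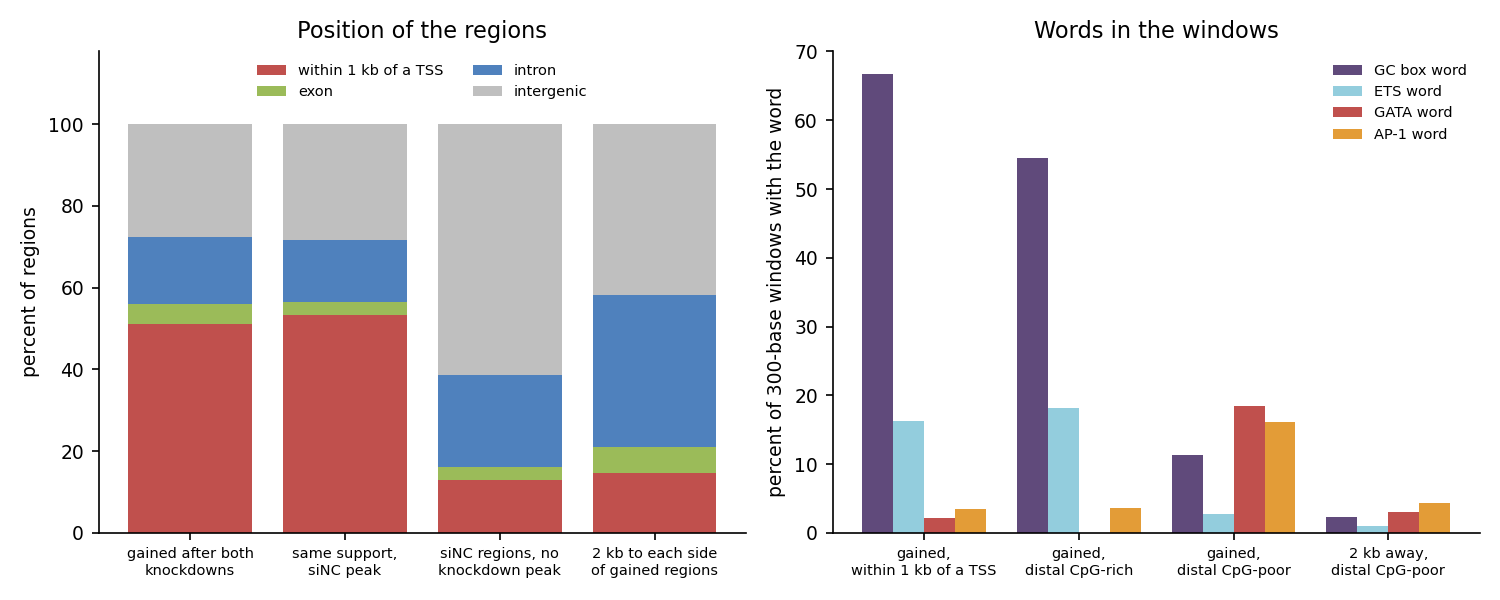
Left, the percent of regions within 1 kb of a TSS, in exons, in introns and between genes, counting protein-coding genes only. Bars are for the 635 members, the 2726 supported regions with a siNC peak, the 31 regions found with the groups exchanged and the windows 2 kb to each side of the members. Right, the percent of 300-base windows with the GC-box, ETS, GATA and AP-1 words by class of member; the GC-box word stands in 66.8% of the windows near a TSS, and the GATA word in 18.4% of the distal CpG-poor windows, against 2.96% at 2 kb.

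The same words were then counted in all peaks of each library, members included. Since the words were chosen on the members, the shares are given with no test. Of the distal CpG-poor peaks, 15.1%, 15.1% and 17.4% held the GATA word in siMBD6, 13.2%, 15.3% and 16.7% in siNSUN2, 11.8%, 13.3% and 12.1% in TET2 KO siNC and 7.94% to 8.26% in WT siNC. The 3 TET2 KO siNC libraries were all above the 3 WT siNC libraries, by 4.30 percentage points on average. With all listed peaks, the siMBD6 libraries were all above TET2 KO siNC, by 3.46 points on average, and the siNSUN2 libraries overlapped TET2 KO siNC. Held to an equal number of peaks, the means were 17.1% ± 1.38, 17.8% ± 2.27, 13.1% ± 1.41 and 8.25% ± 0.12 (SD, n = 3 each) in siMBD6, siNSUN2, TET2 KO siNC and WT siNC. The AP-1 word was in 14.3% ± 0.52 of such peaks in siMBD6, 13.2% ± 1.63 in siNSUN2, 11.0% ± 0.96 in TET2 KO siNC and 9.50% ± 1.21 in WT siNC (SD, n = 3 each).

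**Figure D4:**
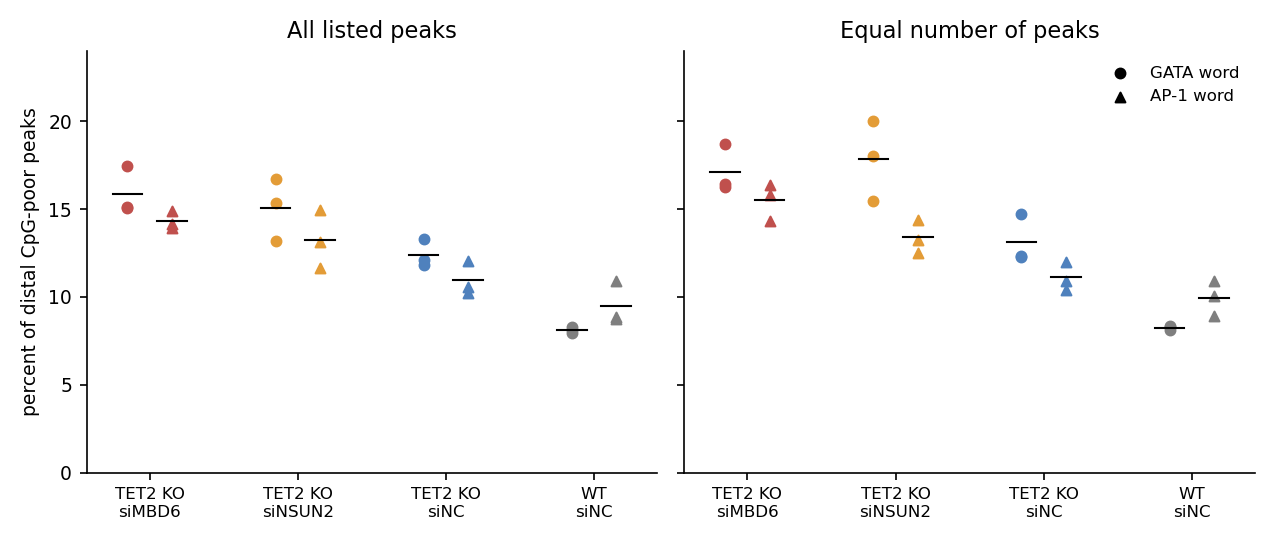
Percent of distal CpG-poor peaks that hold the GATA word (circles) or the AP-1 word (triangles) in each K-562 library, with the group mean as a line, for all listed peaks (left) and for an equal number of peaks per library (right). The WT siNC libraries are lowest for the GATA word, at 7.94% to 8.26% of all listed peaks, and the knockdown libraries are highest on average.

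The peaks of the knockdown libraries also lay nearer to genes. Of all peaks, 45.1%, 45.1% and 47.7% had a TSS within 5 kb in siMBD6 and 44.1%, 45.3% and 45.7% in siNSUN2, against 40.9%, 40.7% and 39.9% in TET2 KO siNC. The groups did not overlap (5.50 and 4.56 percentage points, p = 0.1 each, exact permutation test, two-sided, the smallest possible). The WT siNC libraries, at 42.3% to 43.4%, lay between them. All peaks entered this comparison, members included. Members took 9.40% to 10.5% of the peaks of each knockdown library and, by the rule, none of the siNC peaks. The difference and its p thus partly rest on values that the rule used. This share was not computed at an equal number of peaks. Mean GC content of peaks was 63.0% ± 0.21 in siMBD6, 62.9% ± 0.30 in siNSUN2 and 63.0% ± 0.17 in TET2 KO siNC (SD, n = 3 each), and the groups overlapped.

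Members stood within 5 kb of the TSS of 318 of 20007 protein-coding genes, 1.59%, and the counts in 23 gene lists were mostly too small to be read against this share. Of 146 developmental transcription factor genes only PAX9 had such a member, 0.685%, with LHX6 and LMX1A holding members farther inside the gene. None of 39 HOX genes, 53 clustered protocadherin genes or 413 olfactory receptor genes had one. The K-562 libraries marked few of these genes at all: 15 of the 146 developmental and 3 of the 39 HOX windows of 5 kb to each side of the TSS had a peak in any of the 12 libraries, 10.3% and 7.69%, against 24.4% of all windows. Of 508 zinc finger genes named ZNF, 10 had a member, 1.97%, among them ZNF555, ZNF57 (342, 310 and 0 bp in siMBD6, and 342, 252 and 223 bp in siNSUN2) and ZNF397. Of 31 Polycomb subunit genes 2 had members, among them PHF19, which recruits Polycomb repressive complex 2. None of 25 genes of PR-DUB and of the RNA m5C pathway had one. Among genes of general function, RPL14 and RPL15 of 86 cytosolic ribosomal protein genes and 4 of 349 solute carrier genes had one. The member at ACTB, the beta-actin gene, was only 37 bp wide.

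Of 26 HSPC regulator genes 1 had a member within 5 kb of its TSS, 3.85%, and of 28 erythroid and megakaryocytic genes 1, ALAS2, 3.57%. The region in an intron of LMO2, a bridging protein of GATA and TAL1 complexes that K-562 cells express, had 0, 288 and 288 bp in siMBD6 and 179, 257 and 244 bp in siNSUN2. In an intron of ERG, an ETS factor of haematopoietic stem cells, coverage was 0, 299 and 299 bp in siMBD6 and 0, 276 and 292 bp in siNSUN2. The region in an intron of ALAS2, the erythroid enzyme of haem synthesis, had peaks in 1 siMBD6 library and 2 siNSUN2 libraries. CCNB1, the mitotic cyclin, had a member over its TSS with 242, 224 and 244 bp in siMBD6 and 244, 0 and 0 bp in siNSUN2. No myeloid, lymphoid or fibroblast gene of the lists had a member within 5 kb of its TSS. Because H2AK119ub is not expression, the identity of the cells could be checked only by these marks: of 11 erythroid and megakaryocytic genes, KLF1 had a peak in 10 of 12 libraries, and GATA1 and TFRC had none in any library, while 3 of 8 lymphoid genes had a peak in some library, of 9 granulocyte and monocyte genes SPI1 had a peak in 1 library, and of 5 fibroblast genes none had a peak. TET2 and MBD6 had no peak within 5 kb of the TSS in any K-562 library, and NSUN2 had 0.282 kb in TET2 KO siNC replicate 3 and none in the other 11 libraries, so the mark gives no check of the knockdowns.

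Over whole TSS windows of 5 kb to each side, limma on covered kb, adjusted over 2457 windows, called 0% of all windows higher or lower for siMBD6 against TET2 KO siNC and for siNSUN2 against TET2 KO siNC, which share the TET2 KO siNC libraries. At an unadjusted p under 0.05, limma had 264 and 362 of all windows. For TET2 KO siNC against WT siNC it called 0.0814% of all windows higher and 0.0407% lower. The 318 windows of member genes were chosen for knockdown peaks and for the lack of siNC peaks, which largely fixes their direction in the knockdown contrasts and holds the contrast of siNC libraries near 0, so nothing is read from their values.

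Mouse genes with the same symbols gave a view in libraries that the rule did not use. Of the 318 genes, 275 had a mouse gene of the same symbol. In HSPCs, 128, 127 and 115 of the 275 windows had a peak in Tet2 KO cells with shMbd6, 16, 18 and 12 in Tet2 KO cells with shNC and 77, 79 and 69 in WT cells with shNC. The share of all 21911 mouse windows with a peak in each library was not computed, so these counts do not set the genes apart. limma tested the 106 windows covered in at least 3 of the 9 libraries and called 85 higher and 0 lower with shMbd6 than with shNC in Tet2 KO cells, but 72.0% of all 4242 windows tested were called higher and 0.0943% lower. The median difference was 0.42 kb for the 106 windows and 0.40 kb for all windows. Scaled to equal covered length per library, limma called 31 of the 106 higher and 3 lower, and 1183 of all windows higher and 204 lower. For Tet2 KO against WT cells with shNC, 34 of the 106 were lower and 0 higher, against 22.7% and 0.0236% of all windows. Both HSPC comparisons use the same Tet2 KO shNC libraries.

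At Pih1d1 the 10-kb window had 0.354, 0.375 and 0.319 kb covered with shMbd6 in Tet2 KO HSPCs, none with shNC in Tet2 KO HSPCs and 0.336, 0.331 and 0.339 kb with shNC in WT HSPCs (limma, shMbd6 minus shNC 0.35 ± 0.047 kb SE, adjusted p = 0.000506). Tbccd1 had 0.471, 0.527 and 0.748 kb with shMbd6 and 0.325, 0 and 0 kb with shNC in Tet2 KO HSPCs (0.47 ± 0.11 kb SE, limma adjusted p = 0.00597). Cenpu had 0.284, 0.385 and 0.321 kb with shMbd6 and none with shNC in Tet2 KO HSPCs (0.33 ± 0.083 kb SE, limma adjusted p = 0.00801). At each of these 3 genes the shMbd6 libraries lay above all shNC libraries of Tet2 KO HSPCs. Other top members had little or no mark in HSPCs: Rint1, Gp1bb and Trim63 had no peak in any of the 9 libraries, and Eloc and Scaf4 had a peak in 1 library each.

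In mES cells the windows of these genes were not called for either knockdown, and all 3 mES comparisons use the same Tet2 KO siNC libraries. Of the 275 windows, 46, 84 and 99 had a peak in Tet2 KO cells with siMbd6 and 36, 60 and 55 with siNsun2, against 28, 66 and 67 with siNC. The share of all mouse windows with a peak was not computed for mES cells either. limma called 0 of 198 tested windows higher or lower for siMbd6 against siNC, where 0.158% and 0.0186% of all 10755 windows were called, and 0 for siNsun2 against siNC, where 0% and 0.0186% were called. At an unadjusted p under 0.05 there were 9 windows in each of these comparisons. WT cells with siNC had 201, 229 and 222 of the windows covered, and limma called 153 of 198 lower and 1 higher in Tet2 KO than in WT cells with siNC, against 71.9% and 0.214% of all windows. Scaled to equal covered length, 67 were called lower and 5 higher, and without WT siNC replicate 1, 2 or 3 the windows called lower were 94, 74 or 74. Without siMbd6 replicate 1, 2 windows were called higher for siMbd6. Ccnb1, for example, had no covered base in Tet2 KO siNC mES cells and 0.568, 0.616 and 0.596 kb in WT siNC mES cells.

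**Figure D5:**
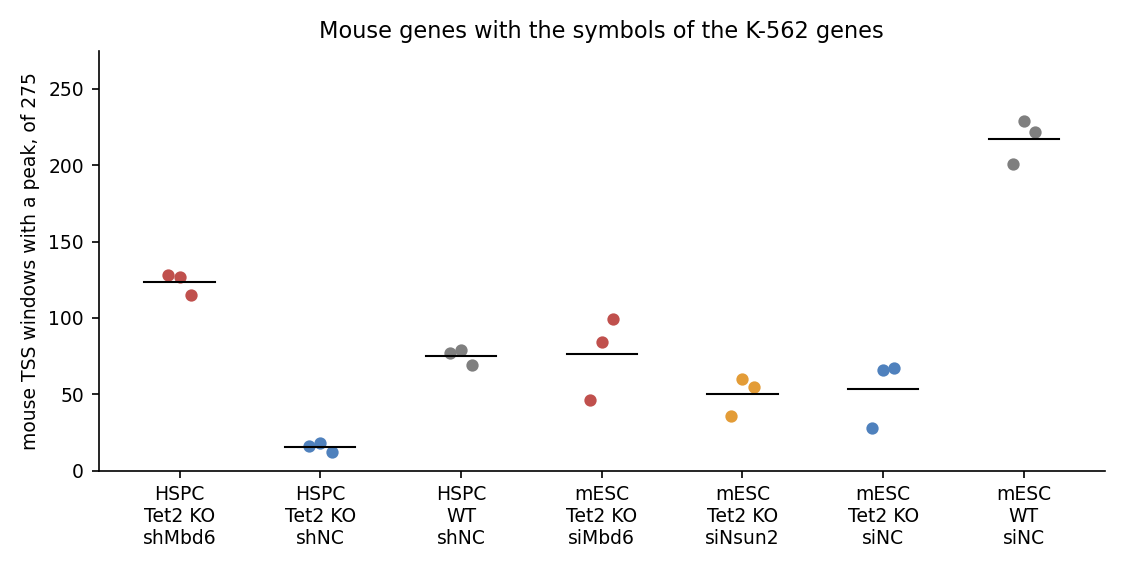
Number of mouse TSS windows with an H2AK119ub peak, of the 275 genes that share a symbol with a gene within 5 kb of a member, in each mouse library (points; the line is the mean of 3). In HSPCs the counts with shMbd6 are 115 to 128 and with shNC in Tet2 KO cells 12 to 18, and in mES cells the siMbd6 and siNC libraries of Tet2 KO cells overlap. The share of all mouse windows with a peak in each library was not computed.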

How the data were processed

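The authors trimmed reads with Trimmomatic 0.39, aligned them with Bowtie2 2.4.1 to hg38 or mm10 with Drosophila, marked duplicates with Picard, and ran MACS 2 on every library separately in broad mode (cutoff 0.01). The deposited lists give, per peak, its start and end (0-based), a score, the ratio of fold enrichment and −log10 p and −log10 q. They hold no read counts, so sequencing depth is unknown, and the spike-in does not scale the lists. All listed peak ends lay within the hg38 reference used here. The number of listed peaks per K-562 library, 1919 to 4575, limits the precision, and Wilson intervals cover counting error only.

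Peaks on chromosomes 1 to 22, X and Y were merged per library and intersected in python 3.11.15. Human TSSs, exons and gene bodies were those of protein-coding genes in GENCODE release 44, and copies came from blastn 2.17.0. limma 3.58.1 in R 4.3.3 fitted group means of covered kb (12 K-562, 9 HSPC and 12 mES libraries, in separate fits). A call is an adjusted p under 0.05, and windows or regions covered in under 3 libraries were left out. The interval code and the fits were tested on simulated data. The named regions are the 25 with most libraries and then most covered bases, plus those whose gene is in a list. The sequence words, and the alternatives with equal numbers of peaks, without copies and with any transcript's TSS, were chosen after seeing the data, and the members and lists were chosen with earlier results of these data known. Other alternatives changed support, exclusion, strength, merging, width, block, scaling, filter, window and each library in turn. The BAP1 libraries and the mES libraries without siRNA were not used here, and a few named regions and genes are not reported here.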

Additional observations from a re-analysis of the deposited data

How the results depend on the processing

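The number of members was 278 with at least 4 of 6 libraries, 209 with at least 2 of 3 in each group, 16 with all 6, 1048 when only TET2 KO siNC libraries excluded regions, 272 at a −log10 q of at least 5 and 186 at an equal number of peaks, and 405 to 764 when each library was left out in turn (405 without siNSUN2 replicate 2). It stayed within 1.5 times 635 under the other alternatives run. The log2 ratio of covered length in the members, siMBD6 to siNSUN2, turned to 0.0475 per covered Mb. The differences in mean GC content turned to 0.0800 points for siMBD6 and 0.0172 points for siNSUN2 at a −log10 q of at least 3, and ran from −0.166 to 0.0469 points for siMBD6 (0.0233 without TET2 KO siNC replicate 3) and from −0.267 to −0.00353 points for siNSUN2 with each library left out. Members called between siMBD6 and siNSUN2 were 7 lower at a −log10 q of at least 3, 1 higher and 2 lower at an equal number of peaks, and 0 to 5 higher and 0 to 23 lower with each library left out. All K-562 regions called were 10 higher and 31 lower, and 0 with scaling to equal covered length or without the filter. In a contrast that the rule used, windows of member genes called higher for siNSUN2 against TET2 KO siNC were 2 without the filter and 0 to 3 with each library left out (3 without siNSUN2 replicate 3). Scaled to equal covered length, the HSPC windows called were 31 higher and 3 lower for shMbd6 against shNC and 3 higher for Tet2 KO against WT, and the mES windows called for Tet2 KO against WT were 5 higher and 67 lower. With 2-kb windows the mES count called higher was 0. With each library left out, the mES counts for Tet2 KO against WT ran from 74 to 157 lower and from 0 to 1 higher (74 without WT siNC replicate 2 or 3), and those for siMbd6 against siNC from 0 to 2 higher. Over all windows the calls, higher and lower, were 10 and 1 for siNSUN2 without the filter, 13 and 17 for TET2 KO against WT siNC when scaled, 194 and 760 for Tet2 KO against WT HSPCs when scaled, 284 and 3852 for Tet2 KO against WT mES cells when scaled, and 121 and 2 for siMbd6 without its replicate 1. The cause of these changes was not tested. Region by region or window by window, deviations of same-numbered libraries were hardly correlated in K-562 cells or HSPCs (correlations of −0.04 to 0.07). In mES cells they ran from 0.0084 to 0.24. These correlations cannot settle whether the numbers pair the libraries, since values of whole libraries moved together by number in the knockdowns. Median peak width in replicates 1, 2 and 3 was 345, 341 and 290 bp in siMBD6 and 343, 337 and 289 bp in siNSUN2. With a replicate block, limma called 0 members between the knockdowns in either direction and 84 of the 106 HSPC windows higher with shMbd6. The p of the yield ratios was 0.25 in an exact sign-flip test over same-numbered libraries. Of 728 values of the 91 named regions under alternatives, 24 moved by more than 1 SD, 20 of them at an equal number of peaks, where 18 regions lost all coverage.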
